A study of Mus musculus with 10 samples.

Results

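The Wnt feedback and β-catenin target genes described here are 10 listed genes out of the 35427 genes counted. They were chosen by name with earlier results of these data known, so counts among them are descriptive. They are Axin2, Notum, Znrf3, Rnf43, Nkd1, Tcf7, Lef1, Sp5, Lgr5 and the β-catenin gene Ctnnb1. Of these, 5 lie on chromosome 11 (Axin2, Notum, Znrf3, Tcf7 and Rnf43) and 5 on other chromosomes, and both sets are kept apart throughout. Gene expression was measured by RNA sequencing after ribosomal depletion in 10 male C57BL/6 embryonic stem cell (ESC) lines, pluripotent cells grown from the blastocyst. The lines comprised 3 wt (Tdg+/+), 3 Tdg+/- and 4 Tdg-/- lines, and each line was 1 library. Tdg encodes thymine DNA glycosylase, a base excision repair enzyme that removes formylated and carboxylated cytosines from DNA. All lines came from timed matings of Tdg+/- parents, started on inactivated feeder cells, and were then kept feeder-free on gelatin in serum-free 2i medium with LIF.

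Wnt ligands stabilise β-catenin by stopping its phosphorylation by GSK3 in the destruction complex, and β-catenin then acts with TCF and LEF factors in the nucleus to switch on target genes. Several of these targets act back on the pathway: Axin2 rebuilds the destruction complex, Notum removes a lipid from Wnt ligands, and Znrf3 and Rnf43 take Wnt receptors off the cell surface. The 2i medium contains a GSK3 inhibitor, an agent used to activate β-catenin signalling, and all 3 genotypes were grown in it.

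TCF and LEF factors bind DNA at short sites built around the letters CTTTGA, which is why 2 promoters are shown: Sp5, a direct target off chromosome 11, and Axin2, the best known feedback gene, on chromosome 11. The 250 bases before each annotated start, from RefSeq on GRCm38.p6, were found for 7 of the 10 genes, with 13 starts among them. Notum, Znrf3 and Lgr5 were not matched. Capitals mark CTTTGA or its reverse complement TCAAAG.
Sp5 (chr2:70474673-70474922, plus strand): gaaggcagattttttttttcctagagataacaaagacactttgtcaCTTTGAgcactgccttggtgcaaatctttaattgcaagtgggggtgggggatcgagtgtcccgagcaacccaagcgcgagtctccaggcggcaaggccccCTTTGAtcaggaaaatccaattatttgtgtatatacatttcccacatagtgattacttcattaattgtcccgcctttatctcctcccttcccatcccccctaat
Axin2 (chr11:108920099-108920348, plus strand): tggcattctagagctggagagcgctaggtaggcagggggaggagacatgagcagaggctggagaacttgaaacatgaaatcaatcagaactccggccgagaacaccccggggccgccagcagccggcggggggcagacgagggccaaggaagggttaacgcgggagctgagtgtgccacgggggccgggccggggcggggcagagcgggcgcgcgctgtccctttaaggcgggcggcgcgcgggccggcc
The Sp5 window held 2 matches, starting 204 and 104 bases before the start of the gene, and the nearer of them was part of the longer form CTTTGAT, which overlaps CTTTGA. The Axin2 window held none, and of the 4 windows of Lef1 1 held 2 matches, at 180 and 120 bases before the start. The windows of Nkd1, Ctnnb1, Tcf7 and Rnf43 held none. Over all 32851 RefSeq windows of this length, 13.8% held CTTTGA on either strand and 3.21% held CTTTGAT. A match in these letters is a description of the sequence and not a binding site.

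Each line had between 31095285 and 39916039 reads in genes (median 36008472). Levels are given as CPM, reads scaled to a common library size after TMM normalization of the 10 libraries, and are listed by line number within a genotype, and log2 fold changes come from edgeR's quasi-likelihood test with Benjamini-Hochberg adjustment over all genes tested. The targeted gene followed the labels, with 89.9 ± 3.98 CPM of Tdg in wt (SD, n = 3), 42.7 ± 3.41 in Tdg+/- (n = 3) and 9.31 ± 1.41 in Tdg-/- lines (n = 4). ESC markers summed to 3380 to 3980 CPM per line. Some libraries stood apart from others of their genotype: counts of Tdg-/- line 1 differed from those of the other Tdg-/- lines by 87.0 to 142 chi-square units per gene, against 18.9 to 27.1 among the others. The same measure was 53.9 and 72.0 for wt line 1, against 20.8 between the other wt lines, and 42.3 and 57.4 for Tdg+/- line 1, against 26.6. Which mating a line came from is not in the labels, so the p values cover only the spread among these lines. In bulk RNA, fewer cells of a type and less RNA per cell cannot be told apart.

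The 10 genes covered a wide range of levels per transcript length. Ctnnb1 was the most abundant, with 660 TPM (a level corrected for transcript length) as the mean of the 10 lines and 552 to 816 among them. Notum followed with 20.9, Axin2 with 11.9 and Tcf7 with 6.11 TPM, and the ranges of Notum and Axin2, and of Axin2 and Tcf7, overlapped. Znrf3, Sp5 and Lef1 stood at 1.49, 1.2 and 0.963 TPM, each range overlapping the next. Rnf43 (0.226 TPM), Nkd1 (0.108 TPM) and Lgr5 (0.016 TPM) were close to the limit of detection. The range of Ctnnb1 did not overlap that of Notum, nor did Tcf7 overlap Znrf3 or Lef1 overlap Rnf43. Thus among the feedback inhibitors the secreted deacylase Notum and the scaffold Axin2 were the main transcripts in these cells, and of the paired ubiquitin ligases Znrf3 had more TPM than Rnf43 in every line.

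In CPM, the 4 well expressed genes on chromosome 11 were higher in every Tdg+/- line than in any wt line. None of them passed the adjusted threshold in edgeR. Lines of 4 of the 9 genes tested did not overlap in this direction, as was so for 12.8% of all genes and 58.4% of those on chromosome 11. By the fitted fold change Notum was 2.29-fold higher, Axin2 1.82-fold, Znrf3 1.64-fold and Tcf7 1.5-fold. Off chromosome 11 the target gene Sp5 was 1.61-fold higher by the same fit, with overlapping lines, while Ctnnb1 itself differed by 1.01-fold. Of the 9 genes tested, 0 were called at an adjusted p under 0.05, where 0.0288% of the 13880 genes tested were called. At an unadjusted p under 0.05 in edgeR, 5 were higher, the 4 named and Sp5, and 0 lower, against 9.55% higher among all genes, 54.1% among chromosome 11 genes and 5.64% off chromosome 11. With DESeq2 4 were called higher, all on chromosome 11, where 3.51% of all genes and 27.8% of chromosome 11 genes were. A fit with 3 surrogate variables, which leave 1 residual degree of freedom, called 3713 of the 13880 genes tested. Among them were these 4, Sp5 (higher, log2 0.5, adjusted p = 0.0237, edgeR) and Lef1 (lower, log2 -0.62, adjusted p = 0.0425, edgeR).

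**Figure D1:**
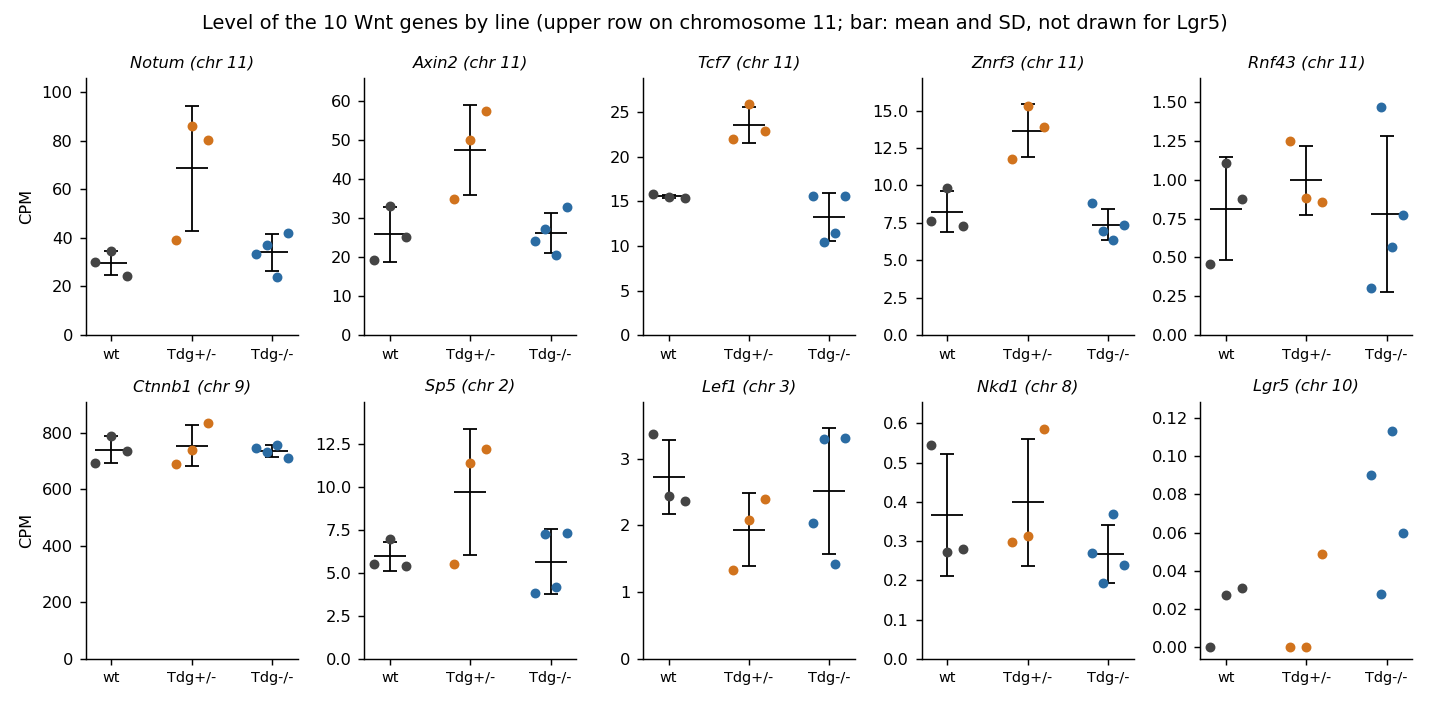
Level in CPM (vertical axis, linear) of each of the 10 genes by genotype, with 1 point per line in the order of the replicate numbers. Bars give the mean and SD and are not drawn for Lgr5. Notum, Axin2, Tcf7 and Znrf3 in the upper row are higher in all 3 Tdg+/- lines than in any wt line, and Sp5 is higher in Tdg+/- lines 2 and 3 but not in line 1, at 5.52 CPM.

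Axin2 encodes a scaffold of the β-catenin destruction complex and is widely used as a readout of the pathway. The wt lines had 19.2, 33.2 and 25.1 CPM, the Tdg+/- lines 34.8, 50.1 and 57.4 CPM and the Tdg-/- lines 24.1, 27.3, 20.6 and 32.8 CPM. In CPM all Tdg+/- lines were above all others, although Tdg+/- line 1 was only just above wt line 2. In TPM they overlapped: Tdg+/- line 1, at 7.78, lay within the wt range (6.49 to 13.1) and the Tdg-/- range (3.16 to 13.7). The log2 fold change was 0.86 (SE 0.232) for Tdg+/- against wt (adjusted p = 0.137, edgeR) and fell by 0.86 (SE 0.195) for Tdg-/- against Tdg+/- (adjusted p = 0.0351, edgeR). Against wt the Tdg-/- lines differed by a log2 of 0.03 (SE 0.207, adjusted p = 0.936, edgeR).

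Notum encodes a secreted carboxylesterase that inactivates Wnt ligands by removing their palmitoleate. Its level was 29.9, 34.5 and 24.5 CPM among wt, 39.2, 86.2 and 80.4 CPM among Tdg+/- and 33.4, 37.0, 23.7 and 41.9 CPM among Tdg-/- lines. Tdg+/- line 1 was close to the other genotypes and below Tdg-/- line 4, while Tdg+/- lines 2 and 3 were far above them. The log2 fold change for Tdg+/- against wt was 1.19 (SE 0.277, adjusted p = 0.109, edgeR). With 1 line left out in turn it ran from 0.99 to 1.48 (adjusted p 0.028 to 0.433, edgeR). It passed the threshold only without Tdg+/- line 1, at 1.48, where 207 genes were called in all against 4 with every line. In Tdg-/- against Tdg+/- lines it fell by 1.02 (SE 0.267, adjusted p = 0.0474, edgeR), and the difference between Tdg-/- and wt was 0.21 (SE 0.195, adjusted p = 0.551, edgeR). Annotated antisense genes overlap Axin2, Notum, Tcf7, Lef1 and Ctnnb1. They were not analysed here, and the strand setting of the counting is not given in the sources used here, so reads of either strand cannot be told apart.

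Znrf3 and Rnf43 are membrane ubiquitin ligases that clear Frizzled receptors. Znrf3 stood at 7.65, 9.81 and 7.27 CPM among wt, 11.8, 15.3 and 13.9 CPM among Tdg+/- and 8.85, 6.95, 6.38 and 7.34 CPM among Tdg-/- lines. The Tdg+/- lines did not overlap either other genotype, while Tdg-/- lines 2 and 3 lay below every wt line and lines 1 and 4 within the wt values. The log2 fold change was 0.71 (SE 0.173, adjusted p = 0.118, edgeR) for Tdg+/- against wt and fell by 0.89 (SE 0.156, adjusted p = 0.0247, edgeR) for Tdg-/- against Tdg+/-. Rnf43 had 10 to 53 reads per line, and its CPM was 0.455 to 1.11 in wt, 0.855 to 1.25 in Tdg+/- and 0.3 to 1.47 in Tdg-/- lines. All 3 ranges overlapped, and its log2 fold change for Tdg+/- against wt, 0.27 with an SE of 0.387, had an adjusted p of 0.763 (edgeR). Nkd1, which binds Dishevelled, had 7 to 24 reads per line and 0.194 to 0.586 CPM, and its log2 fold change for Tdg+/- against wt was 0.11 (SE 0.489, adjusted p = 0.93, edgeR).

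Tcf7 encodes TCF1, a transcription factor that recruits β-catenin to target genes and is itself a target. Its wt values lay close together, at 15.8, 15.5 and 15.4 CPM, and the Tdg+/- lines had 22.0, 25.9 and 22.9 CPM. The Tdg-/- lines had 15.6, 10.5, 11.5 and 15.6 CPM, so lines 2 and 3 lay below every wt line and lines 1 and 4 within the wt values. The log2 fold change was 0.59 (SE 0.122, adjusted p = 0.0967, edgeR) for Tdg+/- against wt and fell by 0.83 (SE 0.169, adjusted p = 0.0282, edgeR) for Tdg-/- against Tdg+/-. Lef1, another factor of this family, on chromosome 3, had a log2 fold change of -0.51 for Tdg+/- against wt (SE 0.285, adjusted p = 0.405, edgeR). It was at 2.37 to 3.37 CPM in wt, 1.33 to 2.39 in Tdg+/- and 1.42 to 3.31 in Tdg-/- lines, and all 3 ranges overlapped.

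Sp5 encodes a zinc finger factor that β-catenin switches on directly, and it lies on chromosome 2. The wt lines had 5.49, 6.95 and 5.43 CPM, the Tdg+/- lines 5.52, 11.4 and 12.2 CPM and the Tdg-/- lines 3.84, 7.25, 4.2 and 7.34 CPM. Tdg+/- line 1 was within the wt values and the other Tdg+/- lines were above every line of both other genotypes. The log2 fold change was 0.69 (SE 0.288, adjusted p = 0.277, edgeR) for Tdg+/- against wt and -0.78 (SE 0.314, adjusted p = 0.112, edgeR) for Tdg-/- against Tdg+/-, neither past the threshold. With 1 line left out in turn the latter ran from -1.06 to -0.6 (adjusted p 0.0485 to 0.315, edgeR). It passed without Tdg+/- line 1, at -1.06 (adjusted p = 0.0485, edgeR). Among the 26 tested genes within 2 Mb of Sp5, 0 had a higher fold change than Sp5 for Tdg+/- against wt, and their median was -0.2. The other tested members off chromosome 11 differed: 18 of 19 neighbours were above Lef1, 4 of 14 above Nkd1 and 13 of 34 above Ctnnb1.

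Ctnnb1 encodes β-catenin, the effector of the pathway, on chromosome 9. Its CPM was 694, 789 and 736 among wt, 690, 737 and 833 among Tdg+/- and 745, 732, 757 and 709 among Tdg-/- lines. The genotypes overlapped fully, and the log2 fold changes were 0.01 (SE 0.1) for Tdg+/- against wt, 0.01 (SE 0.102) for Tdg-/- against wt and -0.04 (SE 0.105) for Tdg-/- against Tdg+/-. Salmon assigned 43.9% to 50.3% of its reads, as genotype means, to its main coding transcript and 33.6% to 34.5% to a retained-intron transcript. A retained-intron form also took a large share of Notum, with 44.2% to 52.4% of reads as genotype means. Lgr5, an R-spondin receptor that marks Wnt-driven stem cells in adult tissues, had 0 to 4 reads in every line and was not tested in any comparison.

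Between Tdg-/- and wt lines no member tested passed a threshold. Of the 8 genes tested, 0 were called in edgeR (0.0718% of 13926 genes were), 0 at an unadjusted p under 0.05 (15.9% of all genes) and 0 in DESeq2 (0.381% of genes higher and 0.287% lower). Their log2 fold changes ran from -0.21 for Tcf7 (SE 0.166) to 0.21 for Notum (SE 0.195), and the lines of both genotypes overlapped for every member, where 9.87% of all genes had lines that did not. The members on chromosome 11 had a median of -0.05 and those off it -0.06, against -0.01 over all genes.

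**Figure D2:**
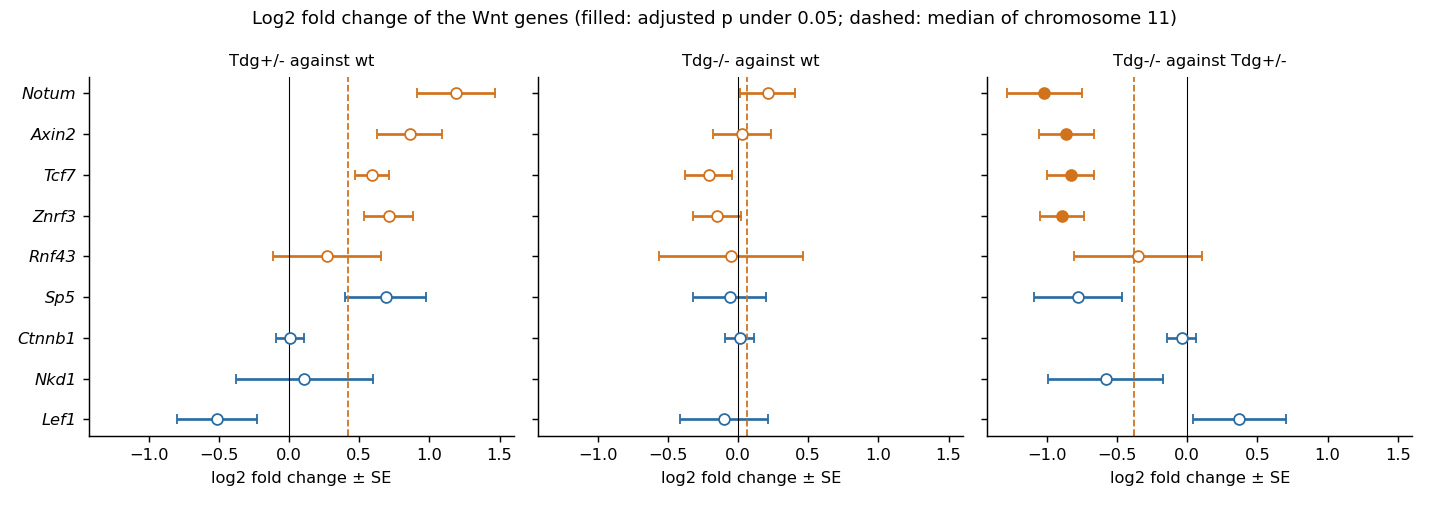
Log2 fold change with its SE (horizontal axis) of the 9 genes tested in any comparison, with genes on chromosome 11 in orange and others in blue. Filled points passed the adjusted threshold, which 4 genes did for Tdg-/- against Tdg+/-, and the dashed line is the median of chromosome 11 genes, 0.42, 0.06 and -0.38 from left to right.

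Between Tdg-/- and Tdg+/- lines the same 4 chromosome 11 genes, Axin2, Notum, Tcf7 and Znrf3, were lower in Tdg-/- lines and passed the threshold. The fitted Tdg+/- level was 1.81-fold that of Tdg-/- for Axin2, 2.02-fold for Notum, 1.78-fold for Tcf7 and 1.85-fold for Znrf3. Of the 9 members tested 4 were called lower and 0 higher, where 9.03% of the 13962 genes tested were called, 5.51% lower, and where 25.7% of chromosome 11 genes were called lower. In CPM the lines of Axin2, Tcf7 and Znrf3 did not overlap, while those of Notum did. Lines did not overlap in the lower direction for 13.1% of all genes and 38.1% of chromosome 11 genes. At an unadjusted p under 0.05 5 genes were lower, Sp5 being the one added, against 18.8% of all genes. This comparison shares its Tdg+/- lines with the comparison against wt, so their values are not independent of each other. The members were also listed with earlier results of these data known, so their counts describe a chosen list. The calls depended on single lines: 4 members on chromosome 11 were called without Tdg+/- line 1 or without Tdg-/- line 1, and 0 without Tdg+/- line 2 or 3 or without Tdg-/- line 2, 3 or 4. The number of all genes called moved as well. It ran from 12 without Tdg+/- line 3 to 5659 without Tdg-/- line 1, against 1261 with every line. Over these omissions the adjusted p (edgeR) ranged from 0.015 to 0.133 for Axin2, from 0.024 to 0.153 for Notum, from 0.00155 to 0.111 for Znrf3 and from 0.00341 to 0.12 for Tcf7. The log2 fold changes of the 4 genes stayed between -1.29 and -0.71 in all of them. With an offset for transcript length in each line, 1 of the 4, Znrf3, was called, while adjusted p was 0.35 for Axin2, 0.0547 for Notum and 0.0529 for Tcf7 (edgeR).

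Because 4 of the 5 higher genes share a chromosome, their values were read beside the level of chromosome 11 in the same lines. The median of the 782 chromosome 11 genes averaging 5 CPM or more, as the log2 difference from the median of the 10 lines, was -0.11, -0.08 and -0.13 among wt, 0.18, 0.41 and 0.29 among Tdg+/- and -0.03, -0.1, -0.16 and 0.06 among Tdg-/- lines. All 3 Tdg+/- lines were above all others, with Tdg+/- line 1 the lowest of the 3. Tdg+/- lines exceeded wt lines by 0.4 on average, with an exact two-sided permutation p of 0.1, the smallest that 3 against 3 lines allow. In the fits, the median log2 fold change of chromosome 11 genes was 0.42 for Tdg+/- against wt and -0.38 for Tdg-/- against Tdg+/-, against -0.02 over all genes in both. The members on chromosome 11 had medians of 0.71 and -0.86 in these comparisons, and those off it 0.06 and -0.31.

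**Figure D3:**
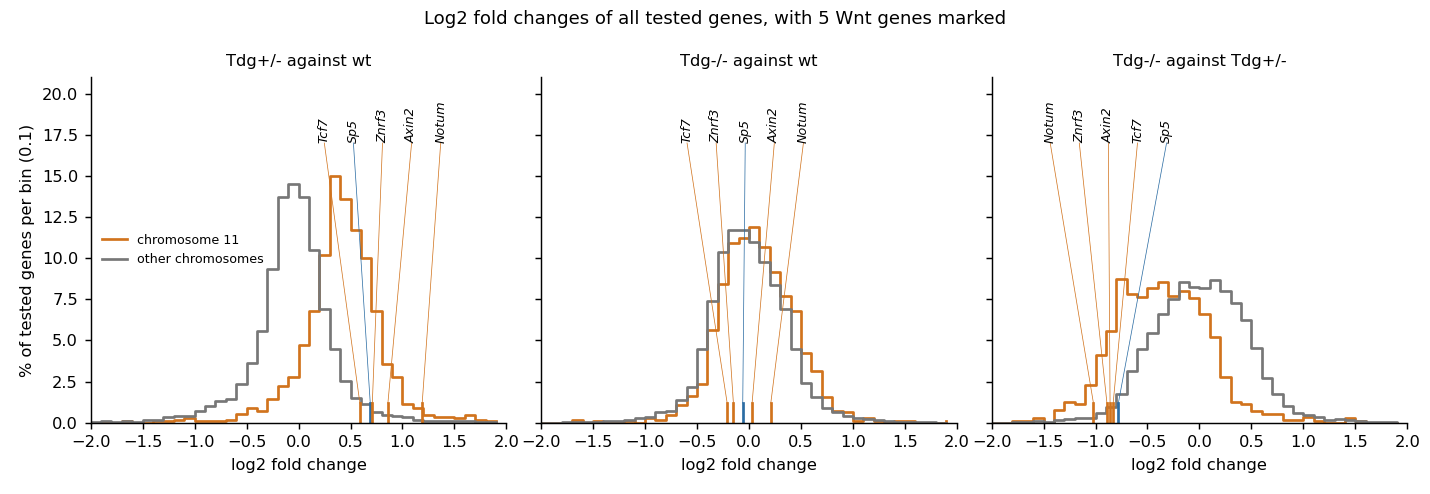
Distribution of log2 fold changes (horizontal axis, bins of 0.1) as a percentage of tested genes on chromosome 11 and on the other chromosomes, with 5 Wnt genes marked at their own values. The chromosome 11 distribution lies to the right for Tdg+/- against wt (median 0.42) and to the left for Tdg-/- against Tdg+/- (median -0.38), and Notum lies farthest out of the 5 in both, at 1.19 and -1.02.

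Measured against the rest of chromosome 11, Notum and Axin2 lay in its upper part for Tdg+/- against wt. The fold change of Notum was above that of 97.1% of chromosome 11 genes, Axin2 above 90.9%, Znrf3 above 83.2%, Tcf7 above 70.5% and Rnf43 above 27.5%. Genes within 2 Mb gave the same order except that Tcf7 came before Znrf3. Of the tested neighbours, 2 of 67 had a higher fold change than Notum (median of neighbours 0.48), 1 of 21 than Axin2 (0.26), 5 of 43 than Tcf7 (0.35), 14 of 70 than Znrf3 (0.54) and 21 of 37 than Rnf43 (0.31). When library scaling was taken from chromosome 11 genes, so that values are relative to that chromosome, the log2 fold change for Tdg+/- against wt was 0.74 for Notum (adjusted p = 0.0414, edgeR), 0.42 for Axin2 (0.152), 0.28 for Znrf3 (0.214), 0.15 for Tcf7 (0.358) and -0.16 for Rnf43 (0.765). This scaling moved the median of all genes from -0.02 to -0.45, with 5020 genes called, so it is read here only for genes on the chromosome. The same scaling for Tdg-/- against Tdg+/- gave -0.48 for Axin2 (adjusted p = 0.0518, edgeR), -0.63 for Notum (0.0487), -0.51 for Znrf3 (0.034) and -0.45 for Tcf7 (0.0493). With chromosome 11 genes tested alone, a setting chosen after seeing the data, 0 of the 5 were called in either comparison, and adjusted p was 0.0742, 0.083, 0.06 and 0.0688 for these 4 genes for Tdg-/- against Tdg+/- (edgeR).

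Line by line, the difference between a gene and the chromosome 11 median varied between the genes. For Tcf7 it was 0.26 to 0.31 in Tdg+/- and 0.06 to 0.13 in wt lines. For Znrf3 it was 0.34 to 0.48 against -0.04 to 0.33, so neither overlapped, but for Znrf3 the nearest lines almost met, at 0.34 and 0.33. How many other chromosome 11 genes do not overlap on this measure was not counted, so it does not set these genes apart from the chromosome. For Axin2 it was 0.04 to 0.65 against -0.53 to 0.23, and for Notum -0.05 to 0.88 against -0.41 to 0.03, which overlapped through Tdg+/- line 1. Tdg+/- lines 2 and 3 held the highest values of Notum and Axin2 on this measure, 0.86 and 0.88 for Notum and 0.33 and 0.65 for Axin2. For Axin2 the next was 0.23, in wt line 2. Sp5, off the chromosome, was high in the same lines.

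**Figure D4:**
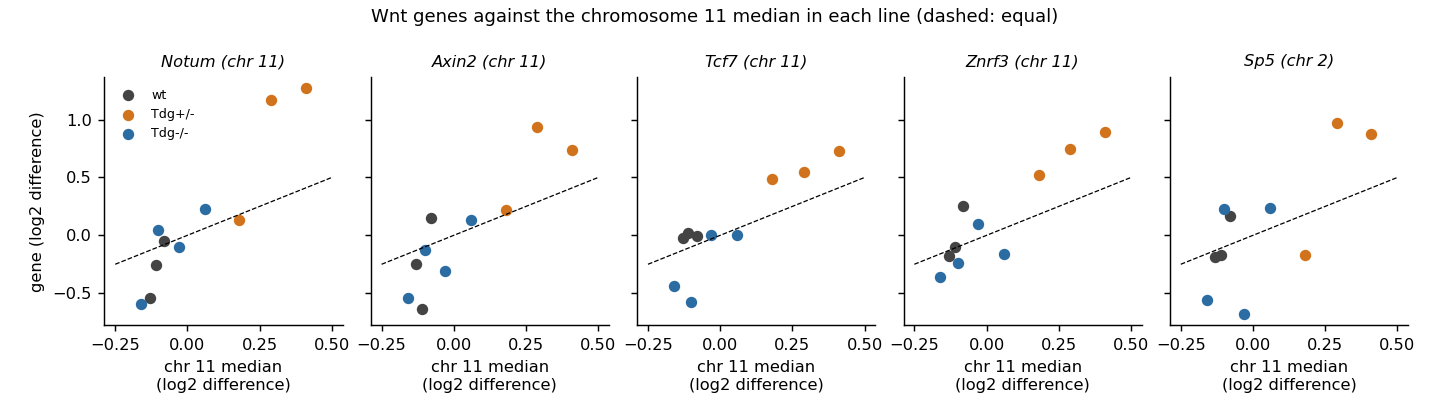
Log2 difference from the median of the 10 lines for each gene (vertical axis) against the median of chromosome 11 genes (horizontal axis) in the same line, with 1 point per line and a dashed line where both are equal. The 3 Tdg+/- lines lie farthest right, and in lines 2 and 3 Notum reaches 1.27 and 1.17 while in line 1 it is at 0.13.

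Over the 10 lines, Axin2 was most like Notum among the members and Znrf3 most like Tcf7. The Pearson correlation of log2 CPM was 0.919 between Axin2 and Notum, 0.917 between Znrf3 and Tcf7, 0.882 between Notum and Sp5 and 0.872 between Axin2 and Sp5. It was 0.568 between Tcf7 and Sp5, and -0.067 between Axin2 and Lef1. These values come from the same 10 libraries for every pair of genes and include the difference between genotypes. Among the 9634 genes averaging 5 CPM or more, the 5 most like Axin2 were Cyb5d1 (r = 0.964), Hexim1 (0.958), Atxn7l3 (0.956), Akap1 (0.951) and Top3a (0.95), all on chromosome 11. Of the 100 genes most like Axin2, 67 lay on chromosome 11, which holds 8.12% of the genes compared. Off chromosome 11 the most like were Tmem175 (0.936), Homer3 (0.936), Il17rd (0.935), Lefty2 (0.934), a secreted Nodal antagonist, and the pseudogene Mrip-ps (0.933), which may share reads with its parent gene. The 5 most like Sp5 were Slc9a8 (0.944), Zfp428 (0.931), Ntn1 (0.924), Pnpla7 (0.918) and Hexim1 (0.914), and of the 100 genes most like Sp5, which is off chromosome 11, 49 lay on it.

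Of 94 other Wnt pathway genes, 67 were tested for Tdg+/- against wt and 0 were called in edgeR (0.0288% of all genes), with 7 above and 4 below at an unadjusted p under 0.05 (9.55% and 7.41% of all genes) and a median of 0.06. Against wt, 0 of the 67 tested in Tdg-/- lines were called in edgeR (0.0718% of all genes), with 3 above and 6 below at an unadjusted p under 0.05 (9.13% and 6.79% of all genes) and a median of -0.17. Between Tdg-/- and Tdg+/- lines 1 of 66 was called higher and 4 lower (3.52% of all genes were called higher and 5.51% lower), with 6 above and 16 below at an unadjusted p under 0.05 (16.4% and 18.8% of all genes) and a median of -0.23. Those called lower were the receptor Fzd2, which fell by 1.11 on the log2 scale (adjusted p = 0.0354, edgeR), the co-receptor Lrp5, which fell by 0.84 (0.0354), the Dickkopf receptor Kremen1, which fell by 0.74 (0.0372), and the Dishevelled gene Dvl2, which fell by 0.55 (0.0257). Fzd2, Kremen1 and Dvl2 lie on chromosome 11 and were the only 3 of the 7 listed genes there that were tested, where 25.7% of all tested chromosome 11 genes were called lower, while Lrp5 lies on chromosome 19. The gene called higher was Bambi, a BMP pseudoreceptor and Wnt target, at 0.83 (adjusted p = 0.0308, edgeR). Off chromosome 11, 1 of 63 tested pathway genes was thus called higher and 1 lower, against 3.8% and 3.75% of all genes there.

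By role, ligands were low, with 4 of 19 tested for Tdg+/- against wt and the highest, Wnt5b and Wnt6, at means of 6.43 and 1.13 CPM over the 10 lines. Wls, which carries Wnt ligands to the cell surface, was at 13.8 ± 4.92 CPM in Tdg+/- (SD, n = 3) and 25.9 ± 7.45 in wt lines (n = 3), a log2 fold change of -0.93 (SE 0.295) that did not pass (adjusted p = 0.181, edgeR). Porcn, the acyltransferase of Wnt ligands, averaged 1.54 CPM. Receptors were better expressed, led by Lgr4 at 110 CPM and Fzd5 at 83.1 CPM, whose log2 fold changes for Tdg+/- against wt were 0.36 (SE 0.22) and 0.22 (SE 0.235). Sfrp1, a secreted Wnt antagonist, was at 334 CPM, with a log2 fold change for Tdg+/- against wt of -0.1 (SE 0.189). Tnks2, a tankyrase that marks Axin for degradation, and Csnk1a1, a kinase that primes β-catenin for it, were at 554 and 479 CPM, with -0.14 (SE 0.1) and -0.18 (SE 0.106). The Groucho corepressors Tle4 and Tle3 averaged 87.8 and 47.3 CPM, with 0.29 and 0.11. Ccnd1, a cell cycle target off chromosome 11, was at 132 ± 41.4 CPM in Tdg+/- (SD, n = 3) and 87.6 ± 27.5 in wt lines (n = 3), with overlapping lines and a log2 fold change of 0.58 (SE 0.288, adjusted p = 0.351, edgeR).

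Markers of other cell types summed to at most 86.7 CPM per line, against 3380 to 3980 CPM for ESC markers. Neuroectoderm markers (3 of 4, Neurog2 under 20 reads) summed to 16.6 to 20.8 CPM in Tdg+/-, 12.0 to 16.1 in wt and 7.78 to 16.3 in Tdg-/- lines, so that they were higher in every Tdg+/- line than in any other, as Axin2, Znrf3 and Tcf7 were. Their part in the results was not tested. Feeder fibroblast markers (8 of 8 detected) summed to 28.3 to 58.8 CPM in wt, 9.66 to 65.0 in Tdg+/- and 19.2 to 42.6 in Tdg-/- lines. Tdg+/- line 2 had the lowest and Tdg+/- line 3 the highest sum of feeder markers of all lines, while both had high Notum, Axin2 and Sp5. Primitive streak and mesoderm markers (3 of 6 detected, Mixl1, Mesp1 and Tbx6 under 20 reads) summed to 10.4 to 17.7 CPM in wt, 11.6 to 15.9 in Tdg+/- and 12.5 to 14.9 in Tdg-/- lines. Primitive endoderm markers (3 of 7, Gata6, Sox17, Foxa2 and Dab2 under 20 reads) summed to 3.34 to 3.81 CPM in wt, 2.08 to 3.05 in Tdg+/- and 2.66 to 3.36 in Tdg-/- lines, lower in every Tdg+/- line than in any wt line. Trophoblast markers (2 of 5, Elf5, Hand1 and Gata3 under 20 reads) summed to 71.4 to 86.7 CPM in wt, 62.1 to 81.8 in Tdg+/- and 59.6 to 66.5 in Tdg-/- lines, lower in every Tdg-/- line than in any wt line. Of the 2 detected, Cdx2 averaged 0.673 CPM over the 10 lines, so this sum was mostly the other gene, Tfap2c. The part of the primitive endoderm and trophoblast markers in the results was not tested.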

How the data were processed

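RNA was measured in 10 ESC lines, grouped by the genotype in the labels. The authors made stranded total RNA libraries, sequenced single-end reads of 80 bases and quantified them with Salmon 0.8.1 on GRCm39 (Ensembl release 108). The deposited values per transcript are estimated counts (expected counts, not normalized) and TPM. TPM, as deposited by the authors, were summed per gene for levels only, and deposited effective lengths served as an offset in 1 alternative.

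Transcripts of a gene were summed and the sums rounded to whole counts. A GRCm38 annotation paired 115153 of 116357 transcripts (98.97%) and gave names, chromosomes and neighbours. The unpaired transcripts held 0.472% to 0.499% of reads and were not used. Genes with at least 20 reads in 1 line were tested with edgeR 4.0.16 in R 4.3.3 (TMM, adjusted p under 0.05), in 3 comparisons, each fitted on its own lines. SE is the log2 fold change over the root of F. Alternatives used DESeq2 1.42.0, sva 3.50.0 (3 surrogate variables), other scalings, filters, covariates and line omissions. The main edgeR fit was checked on simulated lines with known fold changes, and the alternatives were not. No shifted chromosome or outlying line was simulated. Log2 CPM had a prior count of 2. The members and lists were chosen with earlier results of these data known. Other pathway genes named are the 2 most abundant of each list and all that were called. Some results are not reported here.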

Additional observations from a re-analysis of the deposited data

How the results depend on the processing

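For Tdg+/- against wt, 4 genes were called in all. The number was 5020 with scaling by chromosome 11, 744 with DESeq2, 269 without a filter, 13 with at least 10 reads in every line of 1 genotype, 23 with all 10 lines in 1 fit, 0 with a transcript length offset, 3713 with 3 surrogate variables (which leave 1 residual degree of freedom) and 0 to 207 with 1 line left out. Members on chromosome 11 called rose from 0 to 1 with scaling by chromosome 11 or without a filter (Notum, adjusted p = 0.0256, edgeR), to 4 with DESeq2 or surrogate variables, and were 0 to 1 with a line left out. Surrogate variables also called 2 members off it, Lef1 (-0.62) and Sp5 (0.5). For Tdg-/- against wt 10 genes were called, 93 with DESeq2, 19 without a filter and 3 to 3077 with a line left out. Between Tdg-/- and Tdg+/- 1261 were called, 4703 with scaling by chromosome 11, 3347 with DESeq2, 464 with the length offset and 12 to 5659 with a line left out (12 without Tdg+/- line 3, 5659 without Tdg-/- line 1). Of its 4 called members on chromosome 11, 0 remained with chromosome 11 alone (added after seeing the data), 1 with the length offset (Znrf3) and 0 to 4 with a line left out, and off chromosome 11 0 to 1.

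Numbered lines were not shown to share a mating or day, and their deviations correlated by -0.207 to 0.187. Each of Tdg-/- lines 1 to 3 correlated best with the wt line of its own number, as did Tdg+/- lines 1 and 2. Tdg+/- line 3 correlated best with wt line 2. Among Tdg+/- lines, Tdg-/- lines 1 and 2 correlated best with line 3, and Tdg-/- line 3 with line 1. With a replicate block 33, 5 and 6 genes were called in the 3 comparisons, and 0 members for Tdg-/- against Tdg+/-, with Axin2 at -0.96 (adjusted p = 0.151, edgeR).

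Signs turned only for differences that passed no threshold. Rnf43 became -0.16 (Tdg+/- against wt) and 0.02 (Tdg-/- against Tdg+/-) relative to chromosome 11, and 0.12 for Tdg-/- against wt with the length offset. That offset gave Nkd1 -0.21 and Ctnnb1 -0.11 for Tdg+/- against wt, Ctnnb1 -0.09 for Tdg-/- against wt, and Lef1 -0.11 and Ctnnb1 0.00 for Tdg-/- against Tdg+/-. In Tdg-/- against wt lines, Axin2 became -0.05 relative to chromosome 11 and -0.07 with the replicate block, and Ctnnb1 -0.01 without a filter and -0.02 with all 10 lines. With 1 line left out, the values for Tdg+/- against wt were -0.06 to 0.08 for Ctnnb1, -0.07 to 0.53 for Nkd1 and -0.01 to 0.56 for Rnf43. Those for Tdg-/- against wt were -0.14 to 0.25 for Axin2, -0.03 to 0.04 for Ctnnb1, -0.26 to 0.09 for Lef1, -0.56 to 0.24 for Rnf43 and -0.21 to 0.09 for Sp5, and for Tdg-/- against Tdg+/- -0.09 to 0.03 for Ctnnb1. In TPM, the log2 ratio of means for Tdg-/- against Tdg+/- was -1.18 for Znrf3, -0.39 for Lef1 (0.38 in CPM), -1.4 for Notum (-1.01 in CPM) and -0.23 for Ctnnb1. Against wt the Tdg-/- ratio was -0.28 for Ctnnb1, and in TPM it turned to -0.11 for Notum and -0.03 for Axin2, as the Tdg+/- ratio against wt did to -0.21 for Nkd1 and -0.05 for Ctnnb1. The chromosome 11 difference stayed at 0.34 to 0.46. The cause of these shifts was not tested. Counts of 10 to 53 reads for Rnf43, 7 to 24 for Nkd1 and 0 to 4 for Lgr5 limit what can be said of them.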
